A study of Homo sapiens with 20 samples.

Results

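In this series 2 RNA-seq libraries carry the label AMO1-CfzR, a carfilzomib-resistant derivative of the AMO1 multiple myeloma cell line. They were compared with the 2 libraries of parental L363 (L363-WT), another myeloma line, so that 4 of the 20 libraries enter the main comparison. The reference was chosen by the expression values themselves, because the pair labelled AMO1-CfzR resembled L363 and not AMO1, and the label is therefore in doubt. The series measured transcript levels in AMO1, L363, RPMI-8226 and the B-lymphoblastoid line ARH77, each as parental cells and as cells kept in a proteasome inhibitor. Parental cells (WT) grew without drug, and resistant cells grew in 90 nM bortezomib (BtzR) or 90 nM carfilzomib (CfzR), all in RPMI-1640 with serum. Each resistant group is a single evolved line. Each group has 2 libraries, which the methods call biological replicates. The p-values rest on the spread between replicates, pooled over all 20 libraries.

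Carfilzomib is a peptide epoxyketone that binds the catalytic beta5 subunit of the proteasome irreversibly, and plasma cells, which secrete large amounts of immunoglobulin, are sensitive to it. Cells kept in such a drug can acquire resistance in several known ways, among them changes of the proteasome itself, changes of the protein-folding response, and export of the drug. ABCB1 encodes P-glycoprotein (MDR1), an ATP-driven efflux pump of the plasma membrane that transports carfilzomib and many other hydrophobic compounds. Cancer-testis genes, which recur below, are normally active in germ cells, are often repressed by DNA methylation elsewhere, and lie in large part on the X chromosome.

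The values are FPKM, fragments scaled to transcript length and to the size of the library, for 18305 genes, of which 10725 had a mean of at least 1 FPKM in the labelled pair or in L363-WT and were tested. Differences are on the log2(FPKM + 1) scale, on which 1 is a 2-fold change for a well expressed gene and less than the true change for a gene near 0. A gene was called where limma, fitted over all 20 libraries, gave a Benjamini-Hochberg adjusted p under 0.05 and a difference of at least 1. Read totals are not in the table, so the depth is unknown. The sum of FPKM per library ran from 457317 to 494850, and 10455 to 11023 genes reached 1 FPKM. Of 18 plasma cell genes 16 were tested, which a gene can also reach through L363-WT alone. JCHAIN, the immunoglobulin joining chain, stood at 4282 and 4227 FPKM in the labelled pair against 6693 and 4812 in L363-WT. MZB1, another of the 16, stood at 856 and 881 against 1018 and 832. Of 14 B cell genes 3 were tested, with CD79B at 25.7 and 26.7 FPKM in the labelled pair. Of 10 fibroblast and epithelial genes 2 were tested. No T, NK or myeloid marker tested (4 genes, KLRD1, CD247, LYZ and CD68) was above 3.77 FPKM in the labelled pair.

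The values that cast doubt on the label are given as a description, since the reference was selected on them. Pearson r of log2(FPKM + 1) over the tested genes lay between 0.978 and 0.979 against L363-WT, between 0.985 and 0.988 against L363-CfzR, and between 0.861 and 0.864 against AMO1-WT. Of 58 genes at 10 FPKM or more in both L363-WT libraries and at most 0.1 in both AMO1-WT libraries, 57 were at 1 FPKM or more in both labelled libraries. SPARC, a secreted matrix glycoprotein, was one, at 258 and 275 FPKM against 228 and 219 in L363-WT and 0.06 in both AMO1-WT libraries. VCX2 was the exception and is described below. Of 37 genes with the opposite pattern, none reached 1 FPKM in both labelled libraries, and UCHL1, a neuronal deubiquitinase, was listed at 0 in both against 263 and 218 in AMO1-WT. The labelled pair was also not a copy of the L363-CfzR libraries, from which it differed in the genes given below. Of the 24 largest rises and falls against L363-WT, 15 were also called against AMO1-WT, beside 16.3% of all tested genes, and 9 were not called, namely PRAME, WAS, VCX2, VCX, VCX3A, APBA1, TRAT1, BCHE and SLA. The 24 genes were selected on the labelled libraries, which enter both comparisons, so the share over all genes is not a like background. Whether a sample exchange, a mixed culture or another cause lies behind the label was not tested.

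Against L363-WT, 113 genes were called higher in the labelled pair (1.05% of those tested) and 105 lower (0.979%). In every one of these genes both labelled libraries lay beyond both L363-WT libraries. That nearly follows from the call, which needs a difference of at least 1 where the median SE over tested genes was 0.12. It is therefore no added support, and the share over all tested genes is not given. The median difference over all tested genes was -0.02. Many of the called genes were near off in one group: 48 of the higher genes were under 1 FPKM in both L363-WT libraries, and 51 of the lower genes were under 1 FPKM in both labelled libraries. The other L363 libraries place these genes further. Both labelled libraries lay above all 6 L363 libraries in 59 of the genes called higher, and in 8.41% of all tested genes. They lay below all 6 in 43 of those called lower, and in 11.1% of all tested genes. The L363-WT libraries are among the 6 and were already passed in every called gene, so these shares are not a like background. A direct comparison with L363-CfzR over the same tested genes, with the spread taken from the same 20 libraries, called 51 genes higher (0.476%) and 79 lower (0.737%) in the labelled pair. Genes with a mean under 1 FPKM in both the labelled pair and L363-WT were not tested, whatever their level in L363-CfzR. Of the genes called against L363-WT, 20 were higher and 24 lower in both comparisons, which share the labelled pair.

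**Figure D1:**
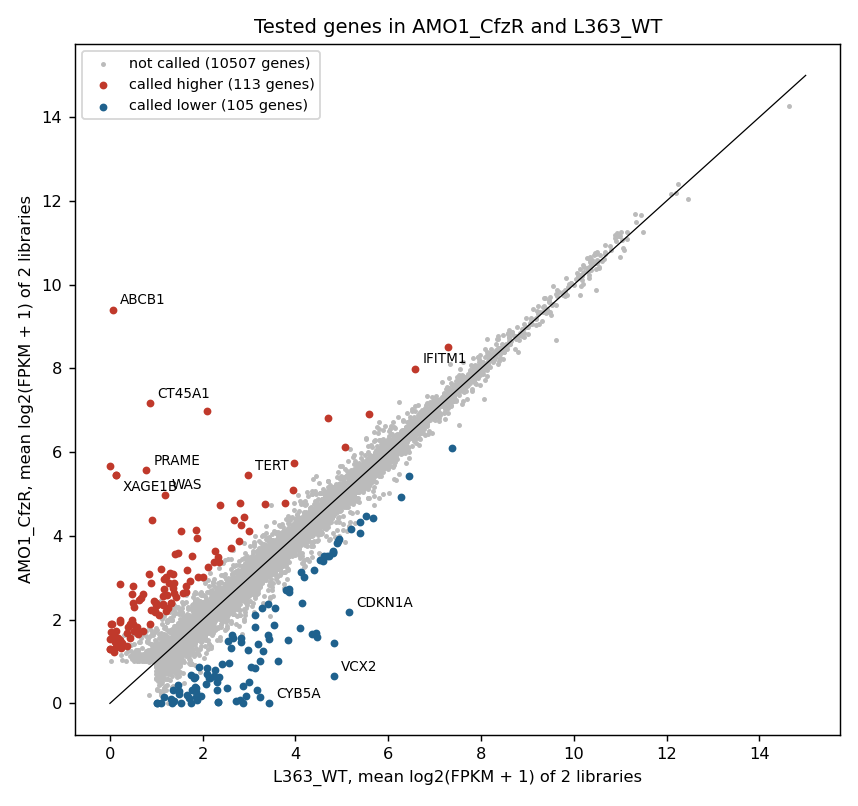
Mean log2(FPKM + 1) of the 2 libraries labelled AMO1-CfzR (vertical axis) against that of the 2 L363-WT libraries (horizontal axis), 1 point per tested gene, with the line of equal values. The 113 genes called higher (red) and 105 called lower (blue) lie off a narrow diagonal, and ABCB1 stands alone at the upper left.

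ABCB1, the drug efflux pump, had the largest difference of any tested gene. It stood at 684 and 668 FPKM in the labelled pair, at 0.10 and 0 in L363-WT, at 288 and 312 in L363-CfzR and at 0.01 and 0.03 in L363-BtzR. Both groups labelled carfilzomib-resistant were thus high and the parental and bortezomib-resistant L363 libraries were at or near 0. AMO1-WT was at 0.94 and 0.78 FPKM and AMO1-BtzR at 0.06 and 0.30. The difference from L363-WT was 9.33 ± 0.10 (SE) on the log2(FPKM + 1) scale, with an adjusted p of 5.0e-18. The labelled pair exceeded L363-CfzR as well, 2.25-fold by the means, with a log2 difference of 1.17 ± 0.10 and an adjusted p of 1.8e-06. The groups did not overlap.

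ABCB1 was the only one of 25 tested ABC transporters to be called, beside 1.05% of all tested genes called higher and 0.979% lower. The other 24 lay between -0.47 (ABCD2, a peroxisomal fatty acid importer) and 0.84 (ABCG1, a cholesterol exporter) against L363-WT. ABCC1, which encodes the multidrug pump MRP1, stood at 10.6 and 10.98 FPKM against 12.9 and 14.2 in L363-WT, a difference of -0.30 that was not called. ABCG2, which encodes the pump BCRP, was at 0.01 and 0.02 FPKM and was not tested.

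ABCB1 has 2 transcription start windows in the RefSeq promoter table (GRCh38.p14). The downstream one, chr7:87600835-87601134 on the minus strand, is shown because transcripts from this gene carry the largest change. Each window covers 300 bases around a start. Capitals mark the CCAAT pentamer, searched on both strands (ATTGG on the printed strand is CCAAT on the other). It occurs in 34.6% of all 35116 windows. The hexamer GGGCGG, searched in the same way and found in 45% of windows, does not occur in it.
ABCB1: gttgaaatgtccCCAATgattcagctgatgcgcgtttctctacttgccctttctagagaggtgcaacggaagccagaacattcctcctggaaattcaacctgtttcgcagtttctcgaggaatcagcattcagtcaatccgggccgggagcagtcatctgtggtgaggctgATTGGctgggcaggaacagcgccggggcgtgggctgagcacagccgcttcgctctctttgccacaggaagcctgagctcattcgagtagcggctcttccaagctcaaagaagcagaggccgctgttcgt

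Some of the genes that flank ABCB1 on chromosome 7 differed between the labelled pair and L363-CfzR. The flanking genes were taken in RefSeq order, 20 tested genes on each side, after the values had been seen. Those called against L363-CfzR all lay on the same side of ABCB1. The adjacent tested genes CROT and SLC25A40, and DBF4 next to SLC25A40, were not called, with differences of -0.63, 0.22 and 0.02 from L363-CfzR. DMTF1, a cyclin D-binding transcription factor, stood at 18.7 and 18.3 FPKM in the labelled pair, 20.5 and 20.2 in L363-WT and 36.1 and 44.9 in L363-CfzR. TMEM243 stood at 16.3 and 14.1, at 16.6 and 18.8, and at 36.4 and 35.3 FPKM in the same groups. The labelled pair lay below both L363-CfzR libraries in each gene and close to L363-WT. The direct difference from L363-CfzR was -1.08 ± 0.11 for DMTF1 (adjusted p = 8.3e-06) and -1.19 for TMEM243, both called.

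Of the 40 flanking genes 6 were called lower than in L363-CfzR, beside 0.737% of all tested genes, and none higher. Further out these were TMEM60, PHTF2 and the secreted guidance proteins SEMA3C and SEMA3A, with differences of -1.30, -1.39, -2.70 and -1.03. Their differences from L363-WT were -0.00, -0.09, -0.48 and -0.70 and were not called. SEMA3C stood at 2.84 and 3.13 FPKM in the labelled pair, 4.29 and 4.86 in L363-WT and 23.5 and 26.5 in L363-CfzR. SRI, which encodes the calcium-binding protein sorcin, was at 36.3 and 36.6 FPKM against 75.05 and 64.5 in L363-CfzR, a difference of -0.91 that missed the size limit. ADAM22, a catalytically inactive ADAM protein, was high in both groups labelled carfilzomib-resistant, at 36.5 and 37.7 FPKM in the labelled pair and 39.4 and 45.5 in L363-CfzR against 20.5 and 23.2 in L363-WT. Its difference from L363-WT, 0.74, missed the size limit (adjusted p = 0.0023). GNAI1, an inhibitory G protein subunit, was called higher than in L363-WT, at 1.67 and 1.97 FPKM against 0.18 and 0.14. SAMD9, an antiviral protein at the far end of the flank, was called lower than in L363-WT (-1.20), at 7.07 and 9.34 FPKM against 18.5 and 21.7, and L363-CfzR was low as well, at 5.79 and 11.7. Copy number was not measured, so amplification of this region was not tested.

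**Figure D2:**
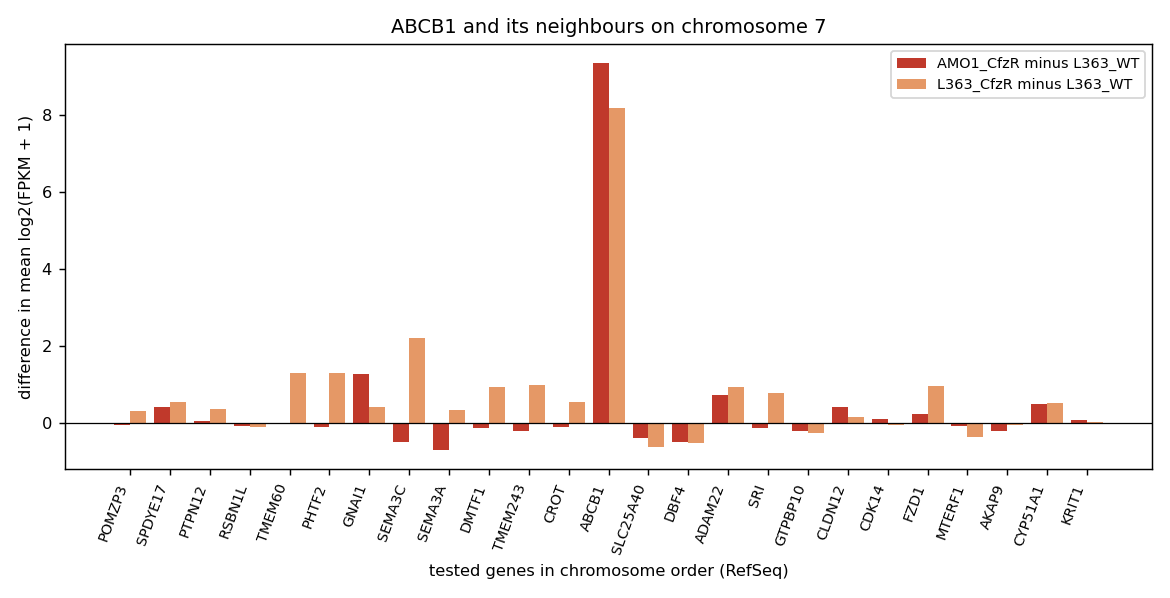
Differences in mean log2(FPKM + 1) from L363-WT for the pair labelled AMO1-CfzR (red) and for L363-CfzR (orange), for ABCB1 and the 12 tested genes on each side in chromosome order. Both groups share the L363-WT reference. The ABCB1 bars reach 9.33 and 8.16, while SEMA3C, TMEM60, PHTF2, DMTF1 and TMEM243 are raised in L363-CfzR and not in the labelled pair.

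The 12 largest rises included the cancer-testis genes CT45A1, CT45A3, CT45A7 and PRAME and the pair XAGE1A and XAGE1B. CT45A1 stood at 156 and 131 FPKM in the labelled pair against 1.55 and 0.30 in L363-WT, CT45A3 at 43.1 and 57.5 with 0 listed in both L363-WT libraries, and CT45A7 at 118 and 134 against 3.07 and 3.49. The log2 differences were 6.31, 5.67 and 4.89 (adjusted p at most 5.7e-12). The same 3 genes were high in L363-CfzR, where CT45A1 stood at 132 and 135 FPKM, and in L363-BtzR, at 121 and 114. None of the 3 was called against L363-CfzR, with differences of 0.10 to 0.24. CT45A10 lay apart from its relatives, at 27.9 and 29.7 FPKM in the labelled pair and 29.8 and 28.1 in L363-WT.

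The CT45 copies are near-identical in sequence, so reads could be split among them by the counting, and single-copy values are uncertain. Their RefSeq promoter windows (GRCh38.p14) are shown for that reason, for a pair of copies that rose and for CT45A10, which did not. Capitals mark the 99-base stretch shared letter for letter by all 3 windows. CT45A1 is at chrX:135713389-135713688 on the plus strand, CT45A7 at chrX:135837030-135837329 on the minus strand, and the first of the 2 CT45A10 windows at chrX:135888847-135889146 on the minus strand.
CT45A1: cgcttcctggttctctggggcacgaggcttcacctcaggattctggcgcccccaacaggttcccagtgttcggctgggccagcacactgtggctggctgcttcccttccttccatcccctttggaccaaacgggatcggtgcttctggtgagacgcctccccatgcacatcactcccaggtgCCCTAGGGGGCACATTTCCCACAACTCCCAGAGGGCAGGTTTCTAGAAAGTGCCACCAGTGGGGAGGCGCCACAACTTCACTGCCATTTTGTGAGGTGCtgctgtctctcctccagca
CT45A7: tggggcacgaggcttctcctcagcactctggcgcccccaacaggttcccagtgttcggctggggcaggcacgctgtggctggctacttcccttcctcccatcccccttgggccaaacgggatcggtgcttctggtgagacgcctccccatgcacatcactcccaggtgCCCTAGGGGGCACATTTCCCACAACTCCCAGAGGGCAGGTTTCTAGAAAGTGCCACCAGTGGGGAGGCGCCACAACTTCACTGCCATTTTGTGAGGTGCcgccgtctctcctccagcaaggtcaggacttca
CT45A10: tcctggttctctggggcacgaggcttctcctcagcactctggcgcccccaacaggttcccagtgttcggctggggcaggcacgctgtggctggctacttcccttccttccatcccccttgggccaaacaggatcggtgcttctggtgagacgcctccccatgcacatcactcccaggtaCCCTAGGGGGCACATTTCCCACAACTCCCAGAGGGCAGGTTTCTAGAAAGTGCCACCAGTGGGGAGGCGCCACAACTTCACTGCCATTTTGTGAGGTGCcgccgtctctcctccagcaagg

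XAGE1A and XAGE1B, a duplicated cancer-testis pair on X, were listed with identical values in all 20 libraries and share an identical 300-base promoter window, so they are 1 measurement. It was 39.6 and 46.4 FPKM in the labelled pair, 0 and 0.19 in L363-WT, 1.98 and 2.03 in L363-CfzR and 4.25 and 2.92 in L363-BtzR. Here the labelled pair stood above all other L363 and AMO1 libraries, with a difference of 3.87 ± 0.13 from L363-CfzR (adjusted p = 5.2e-11). PRAME, which encodes a repressor of retinoic acid signalling, rose from 0.72 and 0.73 FPKM in L363-WT to 45.5 and 47.4, a difference of 4.78. L363-CfzR (33.8 and 41.7 FPKM) and L363-BtzR (29.1 and 29.8) were high too. So were AMO1-WT, at 30.25 and 33.7 FPKM, and AMO1-BtzR, at 83.8 and 65.9. The difference of the labelled pair from AMO1-WT, 0.53, was not called.

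Of 24 listed cancer-testis antigens 13 were tested, of which 5 were called higher (CT45A1, XAGE1B, PRAME, PAGE5 and MAGEA12) and 2 lower, beside 1.05% and 0.979% of all tested genes, with a median difference of 0.50 against -0.02 over all tested genes. The list holds genes first noticed in these data. PAGE5, at 5.52 and 3.95 FPKM against 0.31 and 0.94 in L363-WT, was also called higher than in L363-CfzR, by 2.12. The 2 lower genes were MAGEB2, at 2.32 and 1.86 FPKM against 9.24 and 10.2, and MAGEC1, at 28.8 and 29.6 against 72.2 and 80.7. MAGEA9B, outside the list, was called higher than in both L363-WT (2.17) and L363-CfzR (1.10), and has a near-identical copy, MAGEA9.

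The remaining large rises were of several kinds. WAS, the actin regulator of blood cells that is mutated in Wiskott-Aldrich syndrome, stood at 28.6 and 32.7 FPKM against 1.06 and 1.49 in L363-WT, 5.49 and 5.84 in L363-CfzR and 9.07 and 10.6 in L363-BtzR. AMO1-WT, the parental line of the label, was higher still, at 42.9 and 49.1 FPKM, and AMO1-BtzR was at 1.77 and 1.27. The differences of the labelled pair were 3.80 from L363-WT and 2.24 from L363-CfzR, both called, and -0.57 from AMO1-WT, not called. MYLK3, a myosin light chain kinase of heart muscle, stood at 19.4 and 20.3 FPKM against 0.85 and 0.93 in L363-WT and 7.21 and 7.77 in L363-CfzR. SNCAIP, which encodes the synuclein-binding protein synphilin-1, stood at 6.37 and 6.04 against 0.19 and 0.13 and 2.07 and 2.25. Like ABCB1, these last 2 genes were low in L363-BtzR, where MYLK3 was at 0.87 and 0.92 FPKM and SNCAIP at 0.05 and 0.11. TERT, the catalytic subunit of telomerase, stood at 42.1 and 43.0 FPKM against 6.32 and 7.40 in L363-WT, and the difference from L363-CfzR, at 44.7 and 44.5, was -0.07 ± 0.15 and not called. LOC102723360, an uncharacterised locus, stood at 22.0 and 12.1 FPKM against 1.41 and 2.48.

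**Figure D3:**
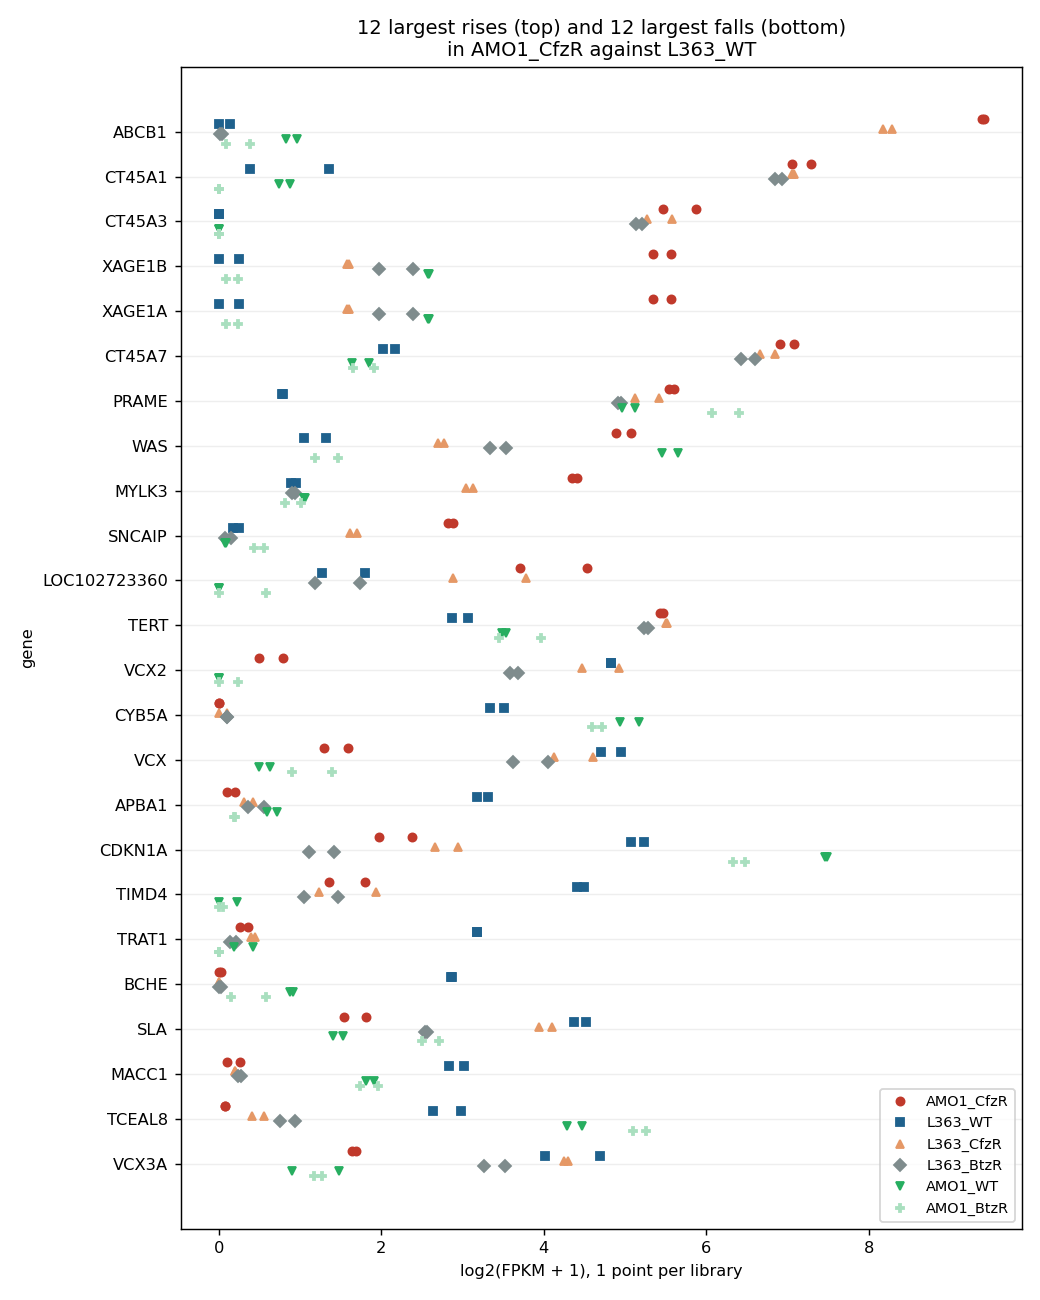
Log2(FPKM + 1) in each library, 1 point per library, for the 12 largest rises (ABCB1 to TERT) and the 12 largest falls (VCX2 to VCX3A) of the pair labelled AMO1-CfzR against L363-WT, with the other L363 and AMO1 groups. For CYB5A, APBA1, BCHE and TRAT1 the labelled pair lies with L363-CfzR and L363-BtzR, while for VCX2, VCX and VCX3A it lies apart from all L363 libraries.

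The largest falls formed 2 kinds by their position among the L363 libraries. In the first, the L363-CfzR and L363-BtzR libraries were low too. CYB5A, which encodes cytochrome b5, an electron donor in lipid and steroid metabolism, was listed at 0 in both labelled libraries against 9.11 and 10.3 FPKM in L363-WT, and was at most 0.07 in L363-CfzR and L363-BtzR. BCHE, butyrylcholinesterase, was at 0 and 0.02 FPKM against 6.24 and 6.32 in L363-WT. APBA1, a synaptic adaptor, was at 0.07 and 0.15 against 8.06 and 8.90. TRAT1, a transmembrane adaptor of lymphocytes, MACC1 and TIMD4, a phosphatidylserine receptor, had the same order, with differences from L363-WT of -2.87, -2.75 and -2.87. None of these 6 genes was called against L363-CfzR. CDKN1A, the cyclin-dependent kinase inhibitor p21 and a p53 target, stood at 2.92 and 4.21 FPKM against 32.8 and 36.5 in L363-WT, 5.33 and 6.67 in L363-CfzR and 1.16 and 1.67 in L363-BtzR. TCEAL8 fell by 2.74 on the log2 scale and was not called against L363-CfzR.

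In the second kind the labelled pair stood apart from L363-CfzR. VCX2, VCX and VCX3A encode testis proteins of the VCX family and share much of their sequence, which makes single-copy values uncertain. VCX2 stood at 0.41 and 0.73 FPKM against 27.3 in both L363-WT libraries and 21.2 and 29.4 in L363-CfzR. VCX stood at 1.46 and 2.01 against 25.1 and 29.9 in L363-WT, and VCX3A at 2.23 and 2.11 against 15.2 and 24.8. AMO1-WT was low for all 3 genes, with VCX2 listed at 0 in both libraries, VCX at 0.55 and 0.41 FPKM and VCX3A at 0.86 and 1.79, and none of the 3 was called against it. The differences from L363-CfzR were -4.06, -2.92 and -2.61, all called. PNPLA4, a retinyl ester and lipid hydrolase that lies between VCX and VCX2 among the tested genes, was lower as well, at 0.34 and 0.53 FPKM against 3.96 and 3.98 in L363-WT and 2.61 and 2.75 in L363-CfzR. PUDP and STS, which lie between VCX3A and VCX, were not called, with differences from L363-WT of 0.16 and -0.46. L363-BtzR was at intermediate levels of the VCX genes, 11.8 and 10.9 FPKM for VCX2.

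SLA, a Src-like adaptor that limits antigen receptor signalling, stood at 1.90 and 2.51 FPKM against 21.9 and 19.7 in L363-WT and 14.3 and 16.2 in L363-CfzR. AMO1-WT stood at the level of the labelled pair, at 1.64 and 1.89 FPKM (difference 0.21, not called). SPN (CD43, a large sialoglycoprotein of leukocytes) stood at 0.97 and 1.05 FPKM against 11.5 and 11.2 in L363-WT, 6.98 and 9.19 in L363-CfzR and 31.1 and 30.6 in AMO1-WT. L363-BtzR was low as well, at 1.45 and 1.64 FPKM for SPN and 4.82 and 4.88 for SLA. SLA and SPN were called lower than in both L363-WT and L363-CfzR. Together with SPN and PNPLA4, the genes called lower in both comparisons and lying below all 10 other L363 and AMO1 libraries were TSPYL5, TRIB2, RASSF8, TOX2 and PLA2G4B, 7 in all, of which PLA2G4B overlaps a readthrough gene and is uncertain. On the higher side 13 genes met the same terms, and the 8 largest were ABCB1, XAGE1B, XAGE1A, MYLK3, SNCAIP, MAGEA9B, PAGE5 and NR2F2. The share of all 10725 tested genes that lie beyond all 10 libraries is not given. Both calls use the labelled pair and had already selected these genes, so the counts of 7 and 13 are a description only. TRIB2 was at 1.38 and 2.05 FPKM in the labelled pair and not far above in L363-BtzR, at 2.60 and 3.75. TSPYL5, a nucleosome assembly protein relative, was at 0.02 and 0.04 FPKM in the labelled pair and between 2.59 and 4.30 in the 6 L363 libraries. KLF2, a transcription factor of resting lymphocytes, was at 1.5 and 2.34 FPKM against 9.68 and 9.92 in L363-WT and 13.5 and 20.8 in L363-CfzR, while L363-BtzR, at 0.96 and 1.44, was lower still.

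HLA class II genes, which encode the chains and helpers that present peptides to CD4+ T cells, stood near the L363-WT level in the labelled pair and below it in L363-CfzR and L363-BtzR. Of 13 listed genes 11 were tested, and none was called against L363-WT, with differences from -0.60 (HLA-DQA1) to 0.66 (HLA-DPA1) and a median of 0.31. Against L363-CfzR, 10 of the 11 were called higher, beside 0.476% of all tested genes, with a median of 1.42. HLA-DRA stood at 221 and 238 FPKM in the labelled pair, 191 and 178 in L363-WT, 74.2 and 104 in L363-CfzR and 69.97 and 98.0 in L363-BtzR. HLA-DPA1 stood at 52.8 and 55.8, 35.3 and 32.7, 11.4 and 14.2, and 18.9 and 23.98 FPKM in that order. CD74, the invariant chain, was at 1281 and 1240 FPKM against 536 and 612 in L363-CfzR. CIITA, the master regulator of these genes, was the one not called, at 6.81 and 6.43 FPKM against 2.51 and 3.72 (difference 0.90, adjusted p = 0.0052). AMO1-WT was at 218 and 223 FPKM for HLA-DRA and at 851 and 938 for CD74. The differences of the labelled pair from AMO1-WT, 0.05 and 0.50, were not called. AMO1-BtzR was higher, at 1803 and 1688 FPKM for HLA-DRA and 6328 and 6320 for CD74. The HLA loci are polymorphic, and alleles that differ from the reference can lose reads.

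**Figure D4:**
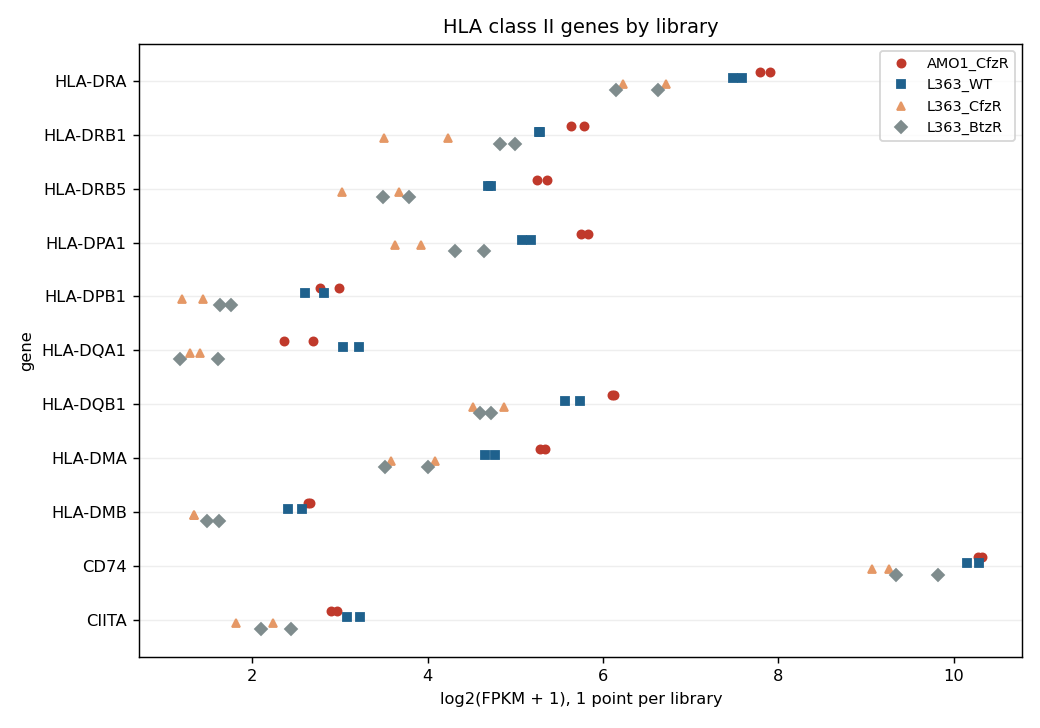
Log2(FPKM + 1) of the 11 tested HLA class II genes in each library, 1 point per library. In every gene both libraries labelled AMO1-CfzR lie above all 4 libraries of L363-CfzR and L363-BtzR.

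OAS1 and OAS2, interferon-induced sensors of double-stranded RNA, followed the same order. OAS2 stood at 32.7 and 30.03 FPKM in the labelled pair, 38.1 and 33.5 in L363-WT and 8.18 and 12.2 in L363-CfzR. Of 22 tested interferon-stimulated genes, these were the 2 called higher than in L363-CfzR, beside 0.476% of all tested genes. IFITM1, a membrane protein that restricts virus entry, was the 1 called higher than in L363-WT, beside 1.05% of all tested genes. IFITM1 stood at 269 and 238 FPKM against 115 and 78.4 (difference 1.41, adjusted p = 0.0072). The median of the list was -0.13 against L363-WT and 0.47 against L363-CfzR. The IFITM1 call was lost without L363-WT replicate 2, with a difference of 1.13, and without AMO1-CfzR replicate 1, with 1.32.

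No proteasome subunit was called. All 31 listed subunits of the 20S core and 19S cap were tested with differences from -0.10 to 0.17 against L363-WT. PSMB5, the beta5 subunit that carfilzomib binds, was at 62.1 and 63.6 FPKM against 60.1 and 53.0 in L363-WT and 66.4 and 58.1 in L363-CfzR. PSMB4 was at 436 and 417 against 446 and 413. No member was called among the immunoproteasome and PA28 genes (5 tested), the proteasome assembly and NRF1 axis (16), endoplasmic reticulum folding genes (25), ATF4 targets (19) and NRF2 and glutathione genes (20), whose medians lay between -0.15 and 0.04. HSP90B1, the endoplasmic reticulum chaperone GRP94, stood at 870 and 843 FPKM against 1179 and 1055, a difference of -0.38 that was not called. Among 16 tested heat shock chaperones, HSPA1A, the inducible HSP70, was the 1 called, lower, beside 0.979% of all tested genes. HSPA1A stood at 10.8 and 11.2 FPKM against 23.3 and 30.9 (difference -1.21, adjusted p = 0.019). It has a near-identical copy, HSPA1B, and its call was lost without L363-WT replicate 2 (-1.02) and without either labelled library (-1.19 and -1.24).

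Metabolic and housekeeping lists were also without calls, among them glycolysis (19 tested), the respiratory chain and ATP synthase (28), cell cycle genes (28) and ribosomal proteins (20). All 21 cholesterol synthesis and uptake genes had positive differences from L363-WT, from 0.06 to 0.65 with a median of 0.38, and none was called. FDPS, which makes farnesyl pyrophosphate, was at 436 and 443 FPKM against 331 in both L363-WT libraries. L363-CfzR had a median of 0.47 over the same genes against the same reference, and the direct median difference between the groups was -0.07. FADS1, a fatty acid desaturase, was called higher, at 5.71 and 5.56 FPKM against 1.28 and 1.23. L363-CfzR (4.31 and 4.94 FPKM) and L363-BtzR (3.90 and 3.48) stood above L363-WT for FADS1 too.

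Among plasma cell genes none of 16 was called against L363-WT. GPRC5D, an orphan receptor and immunotherapy target, came nearest, at 28.6 and 29.9 FPKM against 59.1 and 51.4 in L363-WT (difference -0.89) and 92.8 and 108 in L363-CfzR, from which the labelled pair differed by -1.74, a called difference. CD48, another surface target, was at 398 and 373 FPKM against 401 and 366. CD79B, the B cell receptor component, was called higher, at 25.7 and 26.7 FPKM against 9.51 and 8.95 in L363-WT. It was the 1 called of 3 tested among 14 listed B cell genes, beside 1.05% of all tested genes. L363-CfzR (18.2 and 19.4 FPKM) and L363-BtzR (22.1 and 17.2) stood above L363-WT for CD79B too. The difference from L363-CfzR, 0.46, was not called. Of 12 listed surface genes 10 were tested and 1 was called, lower, beside 0.979% of all tested genes. That gene was EVI2B, a leukocyte surface protein, at 0.08 and 0.13 FPKM against 2.28 and 2.96 in L363-WT, and at most 0.03 in L363-CfzR and L363-BtzR. The list holds ICAM3, EVI2B, CD53, ITGB7, MME and CD151, the protein signature of proteasome inhibitor resistance in the study, and other surface genes. In the study the surface proteins of ICAM3, EVI2B, CD53 and ITGB7 were lower in resistant lines, and those of MME and CD151 higher. Besides EVI2B, the tested members of the signature lay between -0.14 (CD151) and 0.38 (ITGB7), with CD53 at 0.16 and ICAM3 at 0.15. None of these RNA differences was called (limma adjusted p from 0.46 to 0.73), so their signs are not set against the protein changes. The study measured surface protein, with bortezomib- and carfilzomib-resistant lines aggregated against parental lines. For CD151 in AMO1-BtzR it reported raised protein with almost no change of transcript. It described CD53, EVI2B and CD10 (MME) as transcriptionally regulated. MME was not tested. The signature was chosen on surface protein of resistant lines that bear the same names as these, so it is not independent evidence. GGT1, gamma-glutamyltransferase, had an adjusted p of 2.0e-05 with a difference of 0.78, under the size limit, at 86.7 and 90.1 FPKM against 52.2 and 50.0. CTSL and CTSS, lysosomal cathepsins, were the 2 called of 22 tested autophagy and lysosome genes, both lower, beside 0.979% of all tested genes. CTSL was at 0.07 and 0.03 FPKM against 2.40 and 2.92 in L363-WT, 1.75 and 1.08 in L363-CfzR and 3.41 and 2.56 in L363-BtzR. CTSS was at 0.75 and 0.50 FPKM against 3.67 and 2.87 in L363-WT. It was low in L363-CfzR (0.85 and 0.81) and L363-BtzR (0.70 and 0.71) too. CDH1, E-cadherin, fell by 1.57 on the log2 scale, from 2.49 and 2.74 FPKM in L363-WT to 0.15 and 0.28. L363-CfzR (0.38 and 0.47 FPKM) and L363-BtzR (0.19 and 0.26) were low for CDH1 too.

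The lower genes were gathered on chromosome X, which held 27 of the 105 genes called lower and 15 of the 113 called higher, but 372 of the 10725 tested. A run of 65 tested genes in RefSeq order from ALG13 to HTATSF1, noticed and bounded after the values were seen, held 15 of these lower calls, beside 0.979% over all tested genes. Its median difference from L363-WT was -0.84 (quartiles -0.98 and -0.70), and 54 of its 65 genes were at -0.5 or below. The 15 tested genes before it had a median of 0.15 and the 15 after it -0.03. NKAP, a splicing-associated protein, stood at 10.8 and 10.1 FPKM against 26.6 and 24.2 in L363-WT. UPF3B, a factor of nonsense-mediated decay, stood at 16.2 and 15.2 against 38.7 and 42.9, and RBMX2, an RNA-binding protein, at 11.3 and 11.8 against 27.8 and 26.6. The 11 genes above -0.5 were 5 CT45 genes (CT45A1, CT45A3, CT45A7, CT45A9 and CT45A10), SAGE1 at 0.10, and AMOT, SOWAHD, ELF4, ZNF280C and PLAC1, between -0.43 and -0.15.

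The same run was low in L363-CfzR and L363-BtzR, with a median difference from the shared L363-WT libraries of -0.87 in L363-CfzR and -0.84 in L363-BtzR. In L363-CfzR NKAP was at 11.4 and 11.99 FPKM and in L363-BtzR at 12.2 and 12.6, so that all 6 libraries of these 3 groups were low for this gene and both L363-WT libraries high. None of the 65 genes was called between the labelled pair and L363-CfzR, and the median direct difference was -0.04. Because the 3 differences share the L363-WT libraries, they do not tell whether these groups lost expression or the parental libraries gained it, and DNA copy number was not measured.

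**Figure D5:**
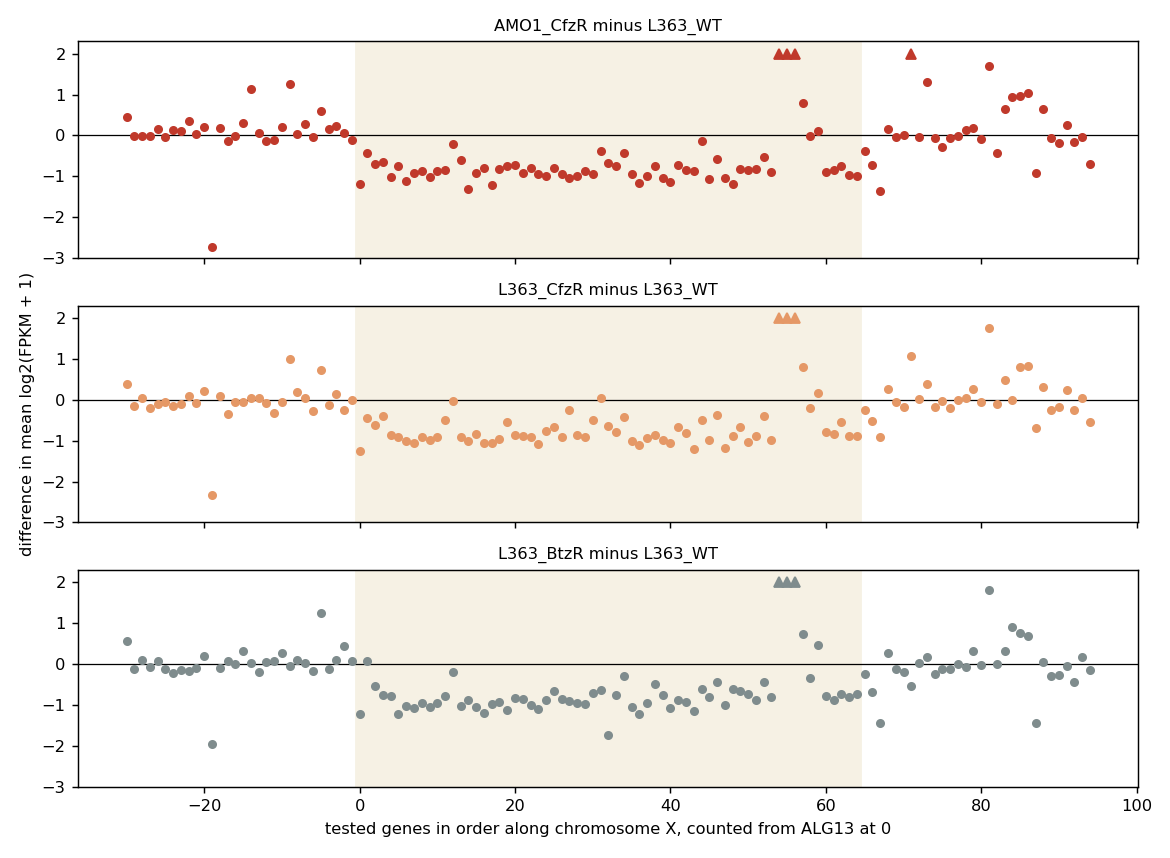
Differences in mean log2(FPKM + 1) from L363-WT for tested genes in RefSeq order on chromosome X, counted from ALG13 at 0, in the pair labelled AMO1-CfzR, in L363-CfzR and in L363-BtzR. The shaded run of 65 genes has a median of -0.84, -0.87 and -0.84 in the 3 panels, and triangles at the top mark differences above 2, among them CT45A1, CT45A3 and CT45A7.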

How the data were processed

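RNA was measured in 20 libraries of 10 groups with 2 replicates each. Per the submitters' processing notes, HISAT2 2.0.4, Bowtie2 2.2.5 and RSEM 1.2.12 were used; their roles, the genome build and the strandedness are not given in the sources used here. The authors deposited FPKM per gene, without counts, so the depth per library is unknown and no counting interval is given. The series table was joined to samples by its column names, and symbols were taken from RefSeq (GRCh38.p14) for 18261 of 18305 gene IDs, which also gave gene order. The RefSeq table was not used for coordinates of expression values.

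limma 3.58.1 in R 4.3.3 was fitted to log2(FPKM + 1) over 10 group means with a mean-variance trend (10 residual degrees of freedom), and p-values were Benjamini-Hochberg adjusted over 10725 genes. Exact tests of 2 against 2 libraries cannot reach 0.05. The script was tested on simulated data. Named genes were the 12 largest called rises and falls whose libraries do not overlap L363-WT, up to 4 called members per direction of 35 lists (the 2 most abundant where none was called), the 8 per direction beyond all 10 other L363 and AMO1 libraries, ABC transporters, surface genes and genes adjacent to a named gene and called in the same direction. Genes named by chromosomal position were chosen after their values were seen, as were PSMB5, ABCC1, GPRC5D, OAS1, OAS2, SPARC, UCHL1 and CT45A10. The members, lists and tests were chosen with earlier results of these data known. Alternatives were other pseudocounts, filters, scalings and variance models, a replicate block, and each library left out.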

Additional observations from a re-analysis of the deposited data

Results flagged for a closer look

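Among the 24 genes with the largest rises and falls against L363-WT, 10 were called between the pair labelled AMO1-CfzR and L363-CfzR by direct limma test. Both groups carry a carfilzomib label. Over all tested genes 0.476% were called higher and 0.737% lower. The 24 genes were selected on the same labelled libraries, so these shares are not a like background for them. XAGE1A and XAGE1B, 2 of the 10, are 1 measurement. On the log2(FPKM + 1) scale the labelled pair was higher for ABCB1 (1.17), XAGE1A and XAGE1B (3.87 each), WAS (2.24), MYLK3 (1.30) and SNCAIP (1.19). It was lower for VCX2 (-4.06), VCX (-2.92), VCX3A (-2.61) and SLA (-2.35). The median over the 11 tested HLA class II genes was 1.42 in the same comparison. With each of the 4 libraries of that comparison left out in turn, all 10 genes kept their direction and their call, and the HLA class II median ran from 1.24 to 1.61.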

How the results depend on the processing

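Each value was recomputed under 14 alternatives planned at the outset. Against L363-WT, the 113 higher and 105 lower genes became 183 and 164 with a pseudocount of 0.1, and 61 and 63 with a filter at 5 FPKM, which tests fewer genes. Against L363-CfzR, the 51 higher and 79 lower genes became 84 and 127 with a pseudocount of 0.1, 79 genes were called higher after quantile normalization, 42 lower with the filter at 5 FPKM, and 100 lower with a filter of 1 FPKM in any of the 10 groups. Leaving out each library gave 105 to 116 higher and 98 to 109 lower genes against L363-WT, and 37 to 72 and 71 to 79 against L363-CfzR. The replicate numbers are not stated to mark a shared culture, and deviations of same-numbered libraries correlated across genes at 0.16 (labelled pair and L363-WT) and 0.32 (labelled pair and L363-CfzR). With the replicate block 114 and 107 genes were called against L363-WT, and 51 and 80 against L363-CfzR. Of 45 called genes named by the rule, 38 kept their call under every alternative that gave a value, and none reversed. IFITM1 and HSPA1A, described above, also lost their calls with both smaller pseudocounts, and HSPA1A with no filter. PLA2G4B lost its call when any 1 library was left out (-0.92 to -1.10), with quantile normalization (-0.46) and with no filter, and LOC102723360, TIMD4, MAGEA9B and MAGEC1 lost theirs with a pseudocount of 0.01. The 10 HLA class II genes called against L363-CfzR were 9 to 11 over the alternatives, and the 15 lower genes of the X run 11 to 23, with the fewest without AMO1-CfzR replicate 2 and the most with a pseudocount of 0.1. The cause was not tested. With 2 libraries a group, the spread rests on all 10 groups, and a library left out leaves a lone sample assumed to vary like the others.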

Other observations

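A second stretch of genes in RefSeq order, at the tip of the short arm of chromosome 5, lay above L363-WT in the pair labelled AMO1-CfzR, and was bounded after the values were seen. From LRRC14B to ANKRD33B 28 genes were tested, of which 24 had a difference of at least 0.3, beside 793 of all 10725 tested, and 2 were called higher, beside 1.05%, with a median of 0.50 (quartiles 0.42 and 0.58). The median over the same genes was 0.16 in L363-CfzR and -0.06 in L363-BtzR against the shared L363-WT libraries, and the 15 tested genes that follow had a median of 0.03 in the labelled pair. NDUFS6, a subunit of respiratory complex I, stood at 276 and 275 FPKM against 157 and 165 in L363-WT and 194 and 173 in L363-CfzR. SDHA, the catalytic subunit of succinate dehydrogenase, stood at 126 and 133 FPKM against 89.5 and 91.6 in L363-WT, and TRIP13, a checkpoint ATPase, at 63.7 and 61.6 against 41.8 and 41.5. TERT lies within this stretch, and its rise was shared by L363-CfzR and L363-BtzR.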
